A study of Mus musculus with 28 samples.

Results

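The UVB response of control mouse skin was measured in 2 separate experiments, and the control animals of both are compared here. The WT set came from the whole-body knockout experiment, with 3 WT libraries after UVB (WT UV) and 3 WT libraries without it (WT NoUV). The FL set came from the keratinocyte knockout experiment, with 4 libraries after UVB (FL UV) and 4 without (FL NoUV). FL animals carried a floxed Vsir gene (Vsir fl/fl) and no Cre recombinase, so the gene was intact, and the design text calls both control sets littermates. The other libraries, used here only to estimate spread and for 1 comparison at the end, came from whole-body knockouts (KO, Vsir-/-) in the WT experiment and from keratinocyte knockouts (cKO, in which K14-Cre removes Vsir) in the FL experiment. Membership was taken from the labels: 14 of the 28 libraries in the series belong to these 4 groups. The 2 count tables were joined on the Ensembl identifier, which gave 51976 genes in common, and each experiment's UV effect was taken only within that experiment.

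All animals were 12-week-old females whose backs were shaved and depilated 5 days before exposure. The UV groups received 500 mJ/cm2 of UVB and the NoUV groups none. Sample titles place the harvest at 3 h after exposure, whereas the treatment protocol places it at 1 day, and the time is therefore given here only as the labels have it. Libraries were total RNA with ribosomal RNA removed. The tissue is labelled skin while the series title speaks of epidermis. The keratinocyte keratins Krt5, Krt14, Krt1 and Krt10 were abundant in every library (Krt10 at 8987 to 13305 CPM, counts scaled to a common library total, in WT UV, 11301 to 12559 in WT NoUV, 3359 to 6242 in FL UV and 4485 to 6944 in FL NoUV), and muscle, fat, fibroblast and sebaceous gland genes were also present. The WT experiment carries the batch label 5.16.22 and the FL experiment 4.5.24, so experiment, date and control genotype cannot be told apart.

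UVB is absorbed in the upper skin, where it damages DNA and triggers stress kinases within minutes. Stressed keratinocytes switch on immediate early transcription factors of the AP-1 family, the p53 pathway halts division or starts cell death, and cytokines and chemokines such as CXCL1 and CCL2 draw in neutrophils and monocytes. Bulky photoproducts also stop RNA polymerase II along the gene, which is known to reduce output from long genes most. Differentiation genes of the cornified envelope are a further target of the response in epidermis.

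Library totals ran from 31.66 to 37.38 M counts in WT UV, 32.74 to 43.84 M in WT NoUV, 15.48 to 26.02 M in FL UV and 7.12 to 30.51 M in FL NoUV, whose replicate 1 was the shallowest. A log2 fold change is the UV group over its own NoUV group, with its standard error (SE), and a gene is said to be called at a Benjamini-Hochberg adjusted p under 0.05 in edgeR's quasi-likelihood test over all genes tested. CPM were scaled within each experiment, so levels of the WT and FL sets are placed side by side as a description only. In bulk tissue, fewer cells of a type and less RNA per cell cannot be told apart.

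More genes passed the test in the WT set than in the FL set, and the genes called in FL mostly had the same sign in WT. In WT skin 3817 of 20365 genes were called (18.7%), 1814 of them higher (8.91%) and 2003 lower (9.84%). In FL skin 1502 of 19718 were called (7.62%), with 695 higher (3.52%) and 807 lower (4.09%). Counts of list members given below are to be read beside these shares. The gap depended on the fit, at 3603 in WT and 3352 in FL with limma voom, and 1288 in WT and 953 in FL from control libraries alone. Of the 18069 genes tested in both, 707 were called in the same direction in both sets (3.91%), 288 as rises (1.59%) and 419 as falls (2.32%). These shared genes made up 19.4% of the 3639 jointly tested genes called in WT and 50.5% of the 1400 called in FL. Only 2 genes, 0.0111%, were called in opposite directions, the histone gene Hist2h4 and the ubiquitin ligase gene Rnf122.

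Direction was shared far more widely than the calls were. Of the genes called in WT, 87.4% had the same sign in FL, and of those called in FL, 93% had the same sign in WT, beside 70.7% of all 18069 genes. Across genes, which are not independent replicates, the 2 sets of log2 fold changes had a Pearson r of 0.497 and a Spearman rho of 0.523. A larger effect in FL went with a larger share also called in WT: 45.0% of genes with an absolute log2 fold change under 1, 57.1% of those between 1 and 2, and 66.2% of those over 2. The reverse share did not move with size, at 19.6%, 18.8% and 20.3% of the genes called in WT. Without regard to calls, UV libraries stood clear of all NoUV libraries, in the same direction in both experiments, for 1201 genes (6.65%). Shared rises had a median log2 fold change of 1.75 in WT and 1.35 in FL, and shared falls of -0.93 in WT and -0.71 in FL, with the larger absolute value in WT for 476 of the 707. Dropping 1 library moved the FL count to 884 without FL UV replicate 4, 904 without FL NoUV replicate 2 and 1000 without FL NoUV replicate 4, and moved the shared count to 434 without FL UV replicate 4.

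The difference between the UV effects, WT minus FL, was then tested directly in 1 model of all 28 libraries. It was called for 262 of 21851 genes (1.2%), 180 of them higher in WT (0.824%) and 82 lower in WT (0.375%). The balance of directions was not stable: limma voom called 388, 161 higher and 227 lower, and without WT NoUV replicate 1 there were 43 higher and 51 lower. Only 15 of the 707 shared genes were among them. For 7645 genes (35.0%), 369 of them shared, the 95% interval of the difference lay within 1 log2 unit of 0 on both sides, so for most genes these libraries can neither show a difference nor bound it that tightly. The count of differing genes is unstable: it was 65 without WT UV replicate 2, 94 without WT NoUV replicate 1, 102 without FL UV replicate 3, 141 without FL UV replicate 1, 162 without WT NoUV replicate 2 and 423 without WT UV replicate 3, and 20 when the spread was estimated from the control libraries alone. Of the 31 genes with a called difference that are named in the text, that last fit kept 6 (Adam4, Efnb2, Fam167a, Hist1h4c, Hist2h4 and Hoxc10) and left the other 25 at adjusted p of 0.0537 to 0.207.

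**Figure D1:**
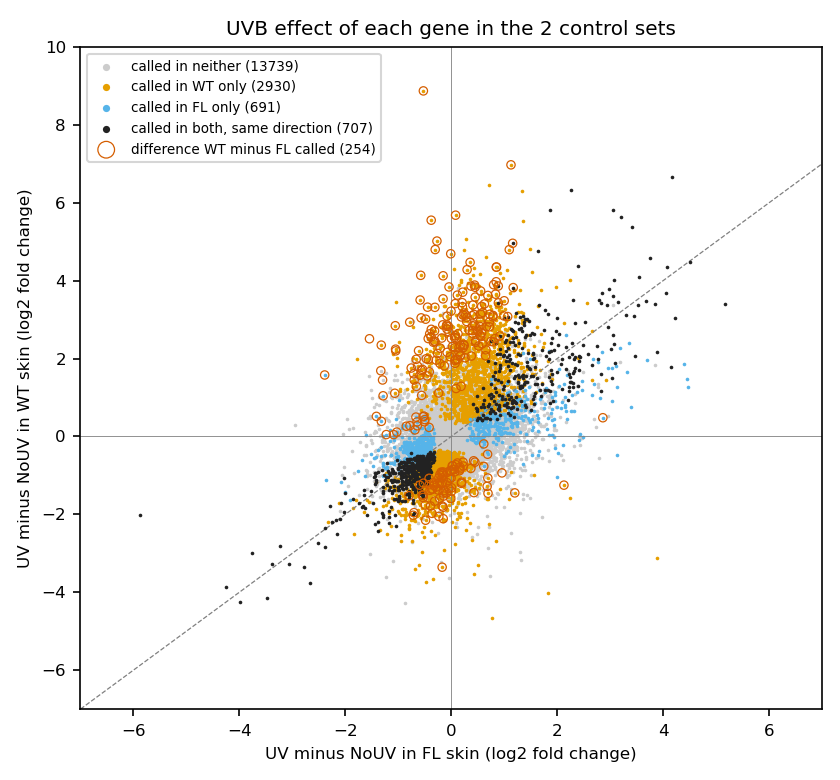
Log2 fold change of each jointly tested gene, UV over NoUV, in WT skin (vertical axis) against FL skin (horizontal axis), coloured by the set in which it was called, with open rings on genes whose difference was called and 2 genes outside the axes. The 707 genes called in both lie in the upper right and lower left quadrants, and most rings lie at high or low WT values close to 0 in FL.

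Among chemokines, Cxcl1, Ccl2, Ccl7 and Ccl12 rose in both control sets. Cxcl1, a neutrophil attractant, stood at 14.98, 16.8 and 11.9 CPM in WT UV libraries, against 1.92, 1.23 and 0.926 CPM in WT NoUV libraries. In FL skin it stood at 4.65, 6.495, 12.9 and 4.09 CPM in UV libraries, against 0.425, 0.753, 0.375 and 0.376 CPM in NoUV libraries. Every UV library lay above every NoUV library of its experiment. The log2 fold change was 3.40 ± 0.66 in WT (SE, adjusted p = 0.00386) and 3.85 ± 0.52 in FL (adjusted p = 0.000568), and their difference of -0.42 had a 95% interval of -2.19 to 1.35. Of the 3 neutrophil-attracting CXC chemokines tested in each set, Cxcl1 alone was called.

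The monocyte attractants Ccl2 and Ccl7 were called higher in both sets. Ccl2 reached 19.5, 43.8 and 29.6 CPM in WT UV, against 6.48, 4.04 and 7.29 CPM in WT NoUV, and 23.6, 22.4, 30.5 and 38.5 CPM in FL UV, against 1.98, 3.19, 5.56 and 2.60 CPM in FL NoUV. UV and NoUV libraries of Ccl2 did not overlap in either experiment. Its log2 fold change was 2.38 ± 0.32 in WT and 3.07 ± 0.48 in FL (adjusted p = 0.000548 and 0.00156). Ccl7 had 3.13 ± 0.42 in WT and 3.29 ± 0.53 in FL (adjusted p = 0.000572 and 0.00191). Of 9 monocyte-attracting CC chemokines tested, 3 rose in each set and they were the same 3, Ccl2, Ccl7 and Ccl12, with a median log2 fold change over the list of 1.11 in WT and 2.02 in FL, beside -0.01 and 0.01 over all jointly tested genes. The other 6 were not called in either set by edgeR. Of the 9, DESeq2 called 4 in WT and 6 in FL, and limma voom 3 in WT and 5 in FL. An unadjusted p under 0.05 was found for 4 in WT and 7 in FL. Ccl11, an eosinophil attractant, had a log2 fold change of -0.41 ± 0.31 in WT (adjusted p = 0.407) and 1.39 ± 0.52 in FL (adjusted p = 0.119). Ccl12 lost its call in WT without WT UV replicate 2 (adjusted p = 0.0519), WT NoUV replicate 2 (0.0547) or WT NoUV replicate 3 (0.0564).

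Among 21 inflammatory cytokines and feedback genes tested in WT, 5 rose and 2 fell, and among 20 tested in FL, 9 rose and 1 fell, with 5 genes shared: Ptx3, Icam1, Lif and Socs3 as rises and Il1a as a fall. Ptx3, a secreted pattern recognition protein, had a log2 fold change of 3.10 ± 0.59 in WT and 3.45 ± 0.53 in FL (adjusted p = 0.00353 and 0.00128), and the WT call was lost with limma voom (0.12). Socs3, the feedback inhibitor of cytokine receptor signalling, had 1.99 ± 0.35 in WT and 2.09 ± 0.40 in FL (adjusted p = 0.00219 and 0.00538), and was chosen after its values were seen. Il1a, an alarmin stored in keratinocytes, fell by 1.80 ± 0.28 in WT and fell by 1.68 ± 0.40 in FL on the log2 scale (adjusted p = 0.00118 and 0.0173). Il1a had 6.88, 7.44 and 7.23 CPM in WT UV, against 13.4, 28.6 and 33.4 CPM in WT NoUV, and 10.6, 12.5, 25.0 and 6.52 CPM in FL UV, against 54.95, 54.9, 36.6 and 28.6 CPM in FL NoUV. Groups did not overlap, although FL UV replicate 3 came close to the lowest NoUV library. The FL call of Il1a was lost without FL UV replicate 1 (adjusted p = 0.0532), FL UV replicate 4 (0.0511) or FL NoUV replicate 2 (0.0532). Macrophage markers had a summed level of 886 to 1466 CPM in WT UV and 673 to 1157 CPM in WT NoUV, and 1002 to 1595 CPM in FL UV and 357 to 1252 CPM in FL NoUV. Of 14 markers, 2 were called higher in WT and 1 in FL, beside 8.91% and 3.52% of all genes tested. List medians were 0.39 in WT and 0.94 in FL. In FL 6 had an unadjusted p under 0.05, DESeq2 called 4 and limma voom 7. In WT 2 had an unadjusted p under 0.05, DESeq2 called 2 and limma voom 1. The part of macrophages in the result was not tested.

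The promoter of Cxcl1 holds a pair of close matches to the NF-kB motif, the binding site of the factor that drives this chemokine in many cell types. The stretch is at chr5:90891155-90891184 on the plus strand of GRCm38.p6 (RefSeq), with its first base 90 bases before the annotated start, and the capitals mark letters that fit GGGAA, any 3 bases and CC on either strand.
Cxcl1: GGGAAACACCctgtactccGGGAATTTCCC
The pattern occurs in 5.78% of the 32851 RefSeq promoter windows of 300 bases (250 before the start and 50 after it). A match describes the letters and shows no binding.

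Stress-induced regulators formed the next group of shared rises. Zfp36, which speeds the decay of cytokine mRNAs, had 335, 323 and 217 CPM in WT UV, against 105, 47.2 and 47.7 CPM in WT NoUV, and 429, 378, 558 and 354 CPM in FL UV, against 66.3, 72.4, 80.1 and 67.5 CPM in FL NoUV. Its groups did not overlap in either experiment, and the FL NoUV libraries lay within a narrow band. The log2 fold change was 2.12 ± 0.30 in WT (adjusted p = 0.000695) and 2.59 ± 0.18 in FL (adjusted p = 2.55e-06), and the difference had an interval of -1.10 to 0.23. Jun, an AP-1 subunit, rose by 1.54 ± 0.23 in WT and 1.199 ± 0.14 in FL on the log2 scale (adjusted p = 0.000876 and 0.000269). Atf3, a repressive stress factor, rose by 1.87 ± 0.36 in WT and 3.10 ± 0.28 in FL (adjusted p = 0.0038 and 3.14e-05), and the difference of -1.19, with an interval of -2.11 to -0.26, was not called over all genes (adjusted p = 0.216). Ier3, an immediate early survival gene, rose by 2.30 ± 0.30 in WT and 2.16 ± 0.21 in FL (adjusted p = 0.00051 and 5.7e-05). Zfp36 and Jun, and Maff, Plk2, Per2 and Trim63 below, were chosen after their values were seen.

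Has1, which makes the matrix polysaccharide hyaluronan, reached 2.19, 9.10 and 5.01 CPM in WT UV, against 0.815, 0.379 and 0.299 CPM in WT NoUV, and 4.14, 7.22, 4.09 and 6.04 CPM in FL UV, against 0.142, 0.133, 0.273 and 0.0313 CPM in FL NoUV. Near-absence without UV and several CPM after it were seen in both experiments. Its log2 fold change was 3.40 ± 0.69 in WT and 5.16 ± 0.77 in FL (adjusted p = 0.00517 and 0.000991), with the difference of -1.73 bounded only by -4.01 and 0.55. Ccno, a cyclin family gene required for multiciliated cells, had nearly equal effects, at 4.47 ± 0.55 in WT and 4.50 ± 0.54 in FL (adjusted p = 0.000384 and 0.000261), with 1.10 to 5.71 CPM in WT UV, 0.149 to 0.189 CPM in WT NoUV, 4.01 to 9.09 CPM in FL UV and 0.136 to 0.407 CPM in FL NoUV. Tnfrsf12a, the receptor of the cytokine TWEAK, rose by 2.40 ± 0.41 in WT and 2.28 ± 0.31 in FL (adjusted p = 0.00206 and 0.000669).

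Has1, the stress kinase gene Plk2 and the small Maf factor gene Maff each hold the palindrome TGACGTCA, the full cyclic AMP response element bound by CREB and ATF family factors, close before the annotated start. They are shown because all 3 rose in both sets. The windows lie in GRCm38.p6 at chr17:17855253-17855282 on the minus strand, chr13:110394971-110395000 on the plus strand and chr15:79347480-79347509 on the plus strand, and the capitals mark the motif, which begins 83, 62 and 29 bases before the start.
Has1: cagacttgtccTGACGTCAgccctcctcca
Plk2: agcgctcgccgTGACGTCAcgaggccccgc
Maff: ggctggggcggTGACGTCActgcatgactg
This motif is in 1.79% of the 32851 windows. It was picked after the promoters were read. Of the 151 protein-coding genes higher in both sets only 107 (70.9%) had a window, and the share of these with the motif was not counted. The 3 windows therefore do not show that the motif is more common among the shared rises. Plk2 rose by 1.35 ± 0.28 in WT and 1.57 ± 0.26 in FL (adjusted p = 0.00529 and 0.0018), and Maff by 1.31 ± 0.25 in WT and 0.99 ± 0.23 in FL (adjusted p = 0.00381 and 0.0126).

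Of the 28 p53 targets tested, 8 rose and 2 fell in WT and 7 rose in FL, with 5 shared: Btg2, Gadd45b, Plk2, Cdkn1a and Pmaip1. Over all genes tested, 8.91% rose and 9.84% fell in WT, and 3.52% rose in FL. The list median was 0.23 in WT and 0.37 in FL. Cdkn1a, which encodes the cell cycle inhibitor p21, had 249, 449 and 342 CPM in WT UV, against 217, 160 and 122 CPM in WT NoUV, and 245, 250, 305 and 211 CPM in FL UV, against 97.6, 119, 122 and 140 CPM in FL NoUV. The groups were apart in both experiments. Its log2 fold change was 1.06 ± 0.26 in WT and 1.08 ± 0.16 in FL (adjusted p = 0.0135 and 0.000901), and the WT call was lost without WT UV replicate 2 (adjusted p = 0.0588) or WT NoUV replicate 3 (0.0517). Pmaip1, which encodes the death factor NOXA, rose by 1.41 ± 0.35 in WT and 2.24 ± 0.30 in FL (adjusted p = 0.0153 and 0.000651).

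Pdk4, Ucp3 and Trim63, genes of muscle and fasting metabolism, rose in both sets. Pdk4, which restrains glucose oxidation, had 402, 358 and 249 CPM in WT UV, against 84.7, 61.8 and 20.7 CPM in WT NoUV, and 240, 743, 180 and 61.8 CPM in FL UV, against 39.1, 40.0, 46.3 and 22.7 CPM in FL NoUV. Its groups did not overlap, and the FL UV libraries were spread widely. The log2 fold change was 2.59 ± 0.60 in WT and 3.05 ± 0.76 in FL (adjusted p = 0.0101 and 0.0254), and the FL call was lost in 5 of 8 fits that left out 1 FL library, with adjusted p up to 0.0802, and the WT call with limma voom (0.0824) or no filter on low counts (0.0666). Ucp3, a mitochondrial carrier of muscle, rose by 2.33 ± 0.57 in WT and 2.76 ± 0.50 in FL (adjusted p = 0.0135 and 0.00381), with the WT call lost without WT UV replicate 1 (0.0532), with limma voom (0.0749) or with no filter (0.0819). Trim63, a muscle ubiquitin ligase gene, rose by 2.62 ± 0.33 in WT and 2.04 ± 0.48 in FL (adjusted p = 0.000428 and 0.0179), and its FL call was lost without FL UV replicate 2 (0.0526), FL NoUV replicate 2 (0.055) or FL NoUV replicate 4 (0.0614). Summed skeletal muscle markers were 19033 to 28143 CPM in WT UV, 11507 to 17979 CPM in WT NoUV, 17903 to 47677 CPM in FL UV and 13642 to 23012 CPM in FL NoUV, with 4 of 15 higher and 1 lower in WT and 1 higher in FL. Their part in the rise of these genes was not tested.

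Of 18 circadian clock genes tested, 2 rose and 2 fell in WT and 5 rose and 2 fell in FL, and Per2, Npas2 and Arntl were shared. Over all genes tested, 18.7% were called in WT and 7.62% in FL, so the WT count is near the share of all genes. Per2, a repressor of the clock, rose by 1.70 ± 0.39 in WT and 1.89 ± 0.43 in FL (adjusted p = 0.00977 and 0.0126), from libraries at 7.68, 9.18 and 8.65 CPM in WT UV, 3.35, 2.97 and 1.52 CPM in WT NoUV, 15.5 to 18.5 CPM in FL UV and 2.22 to 7.36 CPM in FL NoUV. The labels give no hour of harvest for the UV and NoUV animals. The clock activator genes Npas2 and Arntl fell in both sets, and each lost its WT call in 4 of 6 fits without 1 WT library (adjusted p up to 0.0844 and 0.0873). Among 17 glucocorticoid and fasting genes, 4 rose and 1 fell in WT and 11 rose in FL, with 4 shared (Trim63, Pdk4, Sult1a1 and Cebpd), and list medians of 0.72 in WT and 1.38 in FL.

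Falls shared by both sets were led by the Lce1 family, which encodes small proteins of the late cornified envelope and sits in 1 cluster of the epidermal differentiation complex on chromosome 3. Of the 14 members tested, 13 fell in WT and 12 in FL, and the same 12 fell in both, with list medians of -2.90 in WT and -2.93 in FL. Summed over the family, 118 to 248 CPM in WT UV stood against 687 to 898 CPM in WT NoUV, and 212 to 494 CPM in FL UV against 1676 to 2410 CPM in FL NoUV. Lce1j had 1.36, 1.38 and 0.683 CPM in WT UV, against 23.1, 12.9 and 13.8 CPM in WT NoUV, and 5.29, 6.35, 5.94 and 2.50 CPM in FL UV, against 112, 108, 87.4 and 71.5 CPM in FL NoUV. Every UV library was far under every NoUV library of its experiment. Lce1j fell by 3.86 ± 0.42 in WT and fell by 4.25 ± 0.41 in FL on the log2 scale (adjusted p = 0.0002 and 6.12e-05), and Lce1k fell by 4.26 ± 0.50 in WT and fell by 3.99 ± 0.53 in FL (adjusted p = 0.000314 and 0.000669). Members of the family are near-identical in sequence, so the split of counts among them is uncertain. Of 24 other epidermal differentiation genes tested, 3 fell in WT and 1 in FL, with Grhl1, a differentiation factor gene, in both. Over all genes tested 9.84% fell in WT and 4.09% in FL, so these counts are near the share of all genes.

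The promoters of the Lce1 genes resemble each other, and 10 of the 13 with a RefSeq window carry the letters CTGTCTCA on their own strand, beginning 52 to 67 bases before the annotated start. The 10 windows are shown because these genes fell together in both experiments. Capitals mark the 8 letters, which occur on the gene's own strand in 0.965% of the 32851 windows, and the block was found by reading these promoters.
Lce1a1: atgcccaaccaCTGTCTCAcaggtttgggc
Lce1b: atgcccagccaCTGTCTCAcaggttgggca
Lce1a2: atacccagccaCTGTCTCAcaggctagggc
Lce1d: atgcccagtcaCTGTCTCAcaggtcagggc
Lce1e: atccccagccaCTGTCTCAcaggctgggac
Lce1g: gtctccagtcaCTGTCTCActggctgggat
Lce1h: atctccagccaCTGTCTCAcaggctgggat
Lce1i: atctccagtgaCTGTCTCAcaggctgggat
Lce1j: atgtccaaccaCTGTCTCAcaagctggggt
Lce1k: atgcccaaaccCTGTCTCAtatgccaaggg
All lie on the minus strand of chromosome 3 in GRCm38.p6, from chr3:92648352-92648381 for Lce1a1 to chr3:92807940-92807969 for Lce1k. Lce1c and Lce1l fell in both sets too and lack the block in their windows, as does Lce1m, which did not pass in either.

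Beyond this family, shared falls included regulators of growth and signalling. Kctd4, a gene of the BTB domain family, had 8.65, 5.49 and 6.32 CPM in WT UV, against 30.5, 44.4 and 72.03 CPM in WT NoUV, and 13.2, 12.8, 15.8 and 9.57 CPM in FL UV, against 88.4, 58.7, 76.3 and 45.3 CPM in FL NoUV. No library crossed between groups. It fell by 2.84 ± 0.31 in WT and fell by 2.39 ± 0.28 in FL on the log2 scale (adjusted p = 0.000199 and 0.000261). Wnt3a, a canonical Wnt ligand, fell by 2.72 ± 0.46 in WT and fell by 2.51 ± 0.50 in FL (adjusted p = 0.00194 and 0.00585). Lrig1, an inhibitor of the EGF receptor and a stem cell marker in epidermis, fell by 1.12 ± 0.22 in WT and fell by 1.26 ± 0.16 in FL (adjusted p = 0.00463 and 0.000511), and was chosen after its values were seen.

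**Figure D2:**
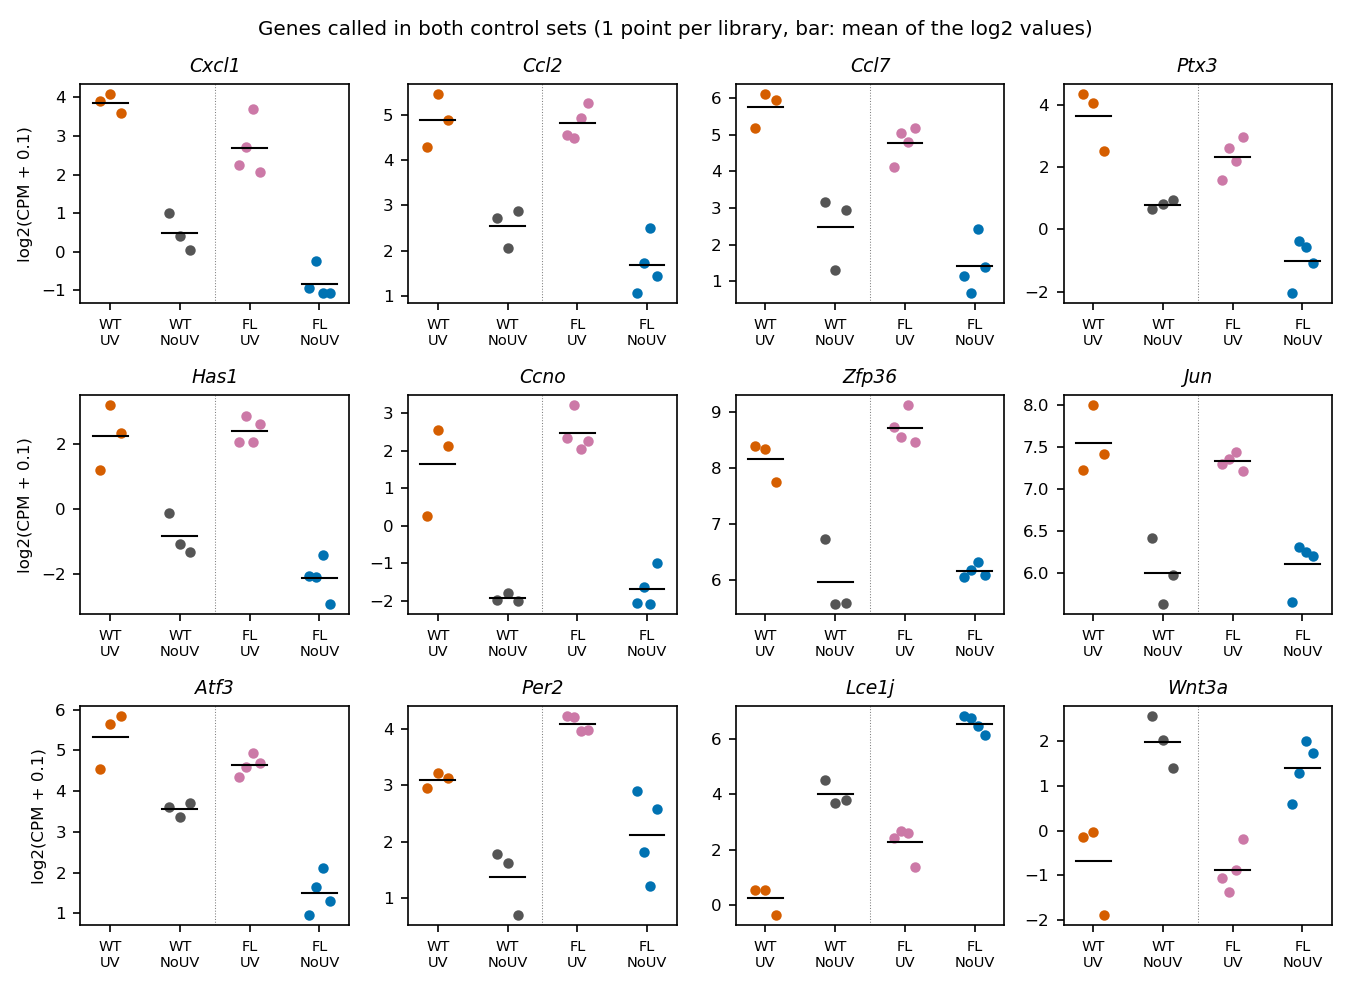
Expression of 12 genes called in the same direction in both sets, as log2 of CPM plus 0.1, with 1 point per library, a bar at the mean of the log2 values, and the UV group left of its NoUV group in each experiment. Cxcl1, Has1, Ccno and Lce1j show wide gaps, and UV and NoUV points do not mix in either experiment for any gene shown.

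Of the 707 shared genes, 267 stayed called in both sets in all 14 fits that left out 1 control library, and 131 did so under all 23 alternatives tried. Those 131 include Cxcl1, Ccl2, Ccl7, Atf3, Jun, Zfp36, Ier3, Plk2, Per2 and 12 Lce1 members.

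Genes whose UV effect differed between the control sets were mostly unspliced transcripts where higher in WT and protein-coding genes where lower. Of the 180 higher in WT, 112 were TEC genes, which the annotation lists as unspliced transcribed regions to be experimentally checked, 13 were sense-intronic transcripts and 32 were protein-coding. Single-exon genes made up 76.5% of them, and the median genomic span was 2.87 kb. Of the 82 lower in WT, 96.3% were protein-coding. Among the shared genes, 65 of the 288 rises were TEC genes, 16 were sense-intronic and 151 were protein-coding, while 416 of the 419 falls were protein-coding, so both kinds of transcript were also found there. Over all 1484 TEC genes tested, the median log2 fold change was 1.63 in WT and 0.33 in FL, and 7.55% had a called difference. Sense-intronic transcripts had medians of 1.47 in WT and 0.31 in FL over 219 genes. Protein-coding genes were called in only 0.7% of 15857 cases, 32 higher and 79 lower in WT. With protein-coding genes alone in the fits, 35 differences were called, 17 higher and 18 lower.

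The level of such transcripts differed between experiments before UV. TEC and sense-intronic genes took 0.176% to 0.210% of counts in WT UV libraries and 0.0631% to 0.105% in WT NoUV libraries, and 0.424% to 0.861% in FL UV libraries and 0.372% to 0.605% in FL NoUV libraries. Thus the WT groups did not overlap, the FL groups did, and both FL groups lay above both WT groups. Whether the counting used the strand of the reads is not given in the sources used here, so reads from introns of the host gene and reads from such a transcript cannot be told apart. The gene annotation also differed between experiments. Gene positions match GRCm38 for 99.7% of genes in the WT experiment and 2.76% in the FL experiment, and 94.7% of the joined genes had the same length in both. The part of the levels above, or of the annotation, in the called differences was not tested.

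**Figure D3:**
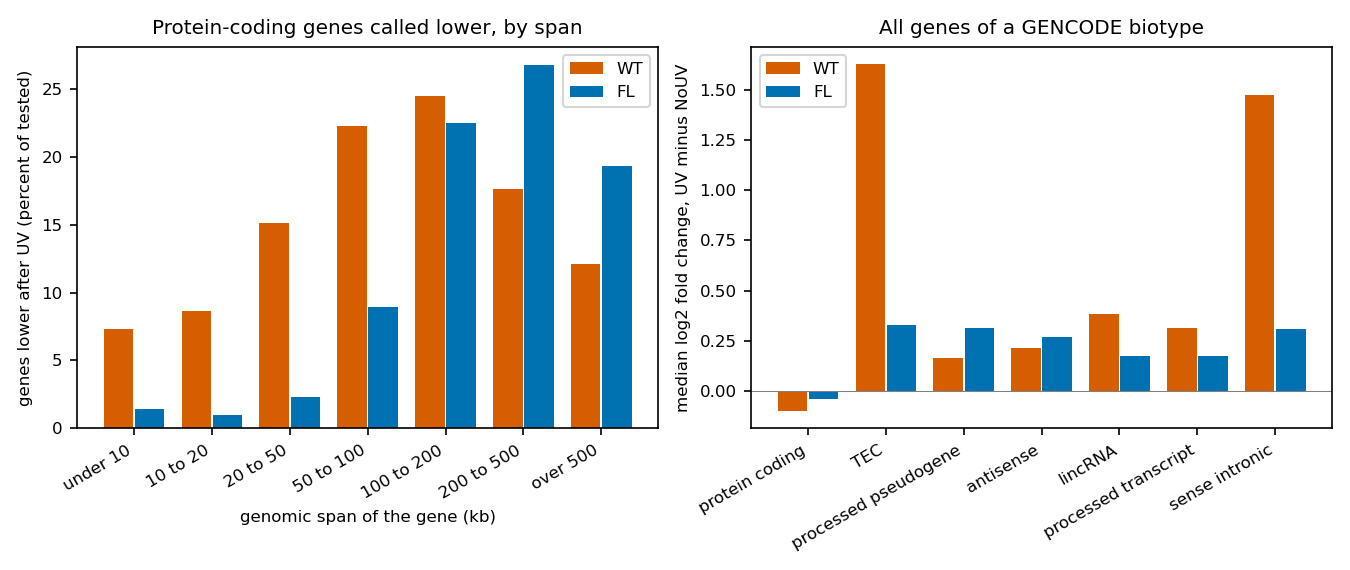
Left, the percent of protein-coding genes called lower after UV in WT and FL skin, by the genomic span of the gene (genes with an average of at least 1 log2 CPM). Right, the median log2 fold change of all genes of each annotated biotype with at least 200 genes, where TEC genes reach 1.63 in WT and 0.33 in FL.

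Among named genes averaging at least 1 log2 CPM, the greatest positive differences after Hoxc10 were in genes for histone H4. Hist2h4 (chr3:96261682-96263311, minus strand; positions of genes are GRCm38), which encodes histone H4 and whose mRNA normally lacks a poly(A) tail, had 0.710, 2.095 and 1.71 CPM in WT UV, against 0.397, 0.221 and 0.149 CPM in WT NoUV. In FL it had 39.4, 14.9, 20.6 and 28.5 CPM in UV libraries, against 51.4, 92.6, 66.9 and 90.6 CPM in NoUV libraries. UV libraries were thus the higher in WT and the lower in FL, with no overlap in either, and FL levels were many times the WT levels. The gene rose by 2.51 ± 0.48 in WT (adjusted p = 0.00368) and fell by 1.54 ± 0.26 in FL on the log2 scale (adjusted p = 0.00209), and the difference of 4.06 ± 0.52 was called (adjusted p = 0.00031). This call held in all 23 alternatives.

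Hist1h4c, another H4 gene, had 0.516, 1.60 and 1.96 CPM in WT UV, against 0.264, 0.0947 and 0.119 CPM in WT NoUV, and 45.2, 25.6, 31.3 and 33.7 CPM in FL UV, against 30.7, 53.9, 39.2 and 65.5 CPM in FL NoUV. Here the WT groups were apart and the FL groups overlapped. The difference was 3.51 ± 0.56 (adjusted p = 0.00348), with a log2 fold change of 3.01 ± 0.53 in WT (adjusted p = 0.00234) and -0.48 ± 0.25 in FL (adjusted p = 0.272). Hist4h4 gave a difference of 4.74 ± 0.82 (adjusted p = 0.00686). Hist1h4a gave a called difference as well (adjusted p = 0.0143), from 61 counts summed over WT UV libraries against 1 count over WT NoUV libraries, a ratio of 64.6 with an exact 95% counting interval of 11.2 to 2595, and the call was lost without WT UV replicate 2 (adjusted p = 0.0559) or WT NoUV replicate 1 (0.0524). H4 genes encode the same protein from near-identical sequence, so their counts may be shared among copies. Histone genes as a whole took 0.0120% to 0.0167% of counts in WT UV, 0.0104% to 0.0123% in WT NoUV, 0.0437% to 0.119% in FL UV and 0.116% to 0.216% in FL NoUV, so the experiments differed in histone counts before UV, and the part of that in the called differences was not tested.

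Of 20 cell cycle genes tested, 4 fell in WT (Ccna2, Plk1, Cdk1 and Ccnb1) and none in FL, beside 9.84% and 4.09% of all genes tested. List medians were -0.47 in WT and -0.70 in FL, and edgeR's test called no difference. At an unadjusted p under 0.05 the counts were 3 in FL and 0 for the difference, and DESeq2 and limma voom called none in either.

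Hox genes, which record position along the body axis, differed in the WT set. Of 29 tested in each set, 8 rose and 2 fell in WT and 1 fell in FL, and none was shared. Over all genes tested, 8.91% rose and 9.84% fell in WT, and 4.09% fell in FL. Hoxc10 (chr15:102966796-102971893, plus strand) had 161, 168 and 272 counts in the WT UV libraries, against 1, 0 and 0 counts in the WT NoUV libraries. In FL it had 42, 0, 52 and 128 counts in UV libraries, against 4, 66, 146 and 120 counts in NoUV libraries. WT libraries split wholly by group, while FL libraries ranged from 0 to over 100 counts within each group. The summed WT counts, 601 against 1, give a ratio of 637 with an exact 95% counting interval of 114 to 25196, and the difference from FL was called (adjusted p = 0.00701). Hoxb9 had 8.36, 8.99 and 15.7 CPM in WT UV, against 1.39, 1.64 and 1.70 CPM in WT NoUV, and 9.34, 2.24, 7.87 and 18.6 CPM in FL UV, against 1.13, 12.5, 12.4 and 10.9 CPM in FL NoUV. Its difference of 2.80 ± 0.83 was not called (adjusted p = 0.097). Hoxc10 and Hoxb9 are genes of the posterior trunk. The labels do not say from which level of the back each piece was taken, and the part of position in these values was not tested.

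Adam4, a metalloprotease family gene (chr12:81419443-81421946, minus strand), had 4.03, 3.97 and 3.19 CPM in WT UV, against 0.661, 0.852 and 0.747 CPM in WT NoUV, and 2.30, 2.31, 2.49 and 2.61 CPM in FL UV, against 2.69, 1.99, 2.56 and 2.38 CPM in FL NoUV. WT groups were far apart, and FL groups overlapped at a level between them. The difference was 2.30 ± 0.38 (interval 1.51 to 3.08, adjusted p = 0.00517), and it held in all 23 alternatives. In the same joint fit the knockout libraries of the 2 experiments, which share none with the controls, gave 2.27 for the whole-body minus the keratinocyte knockout (adjusted p = 0.00785). The spread used for both contrasts came from all 28 libraries.

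Most protein-coding genes that were lower in WT than in FL fell in WT and stayed near 0 in FL. Of the 79, 76 were called lower in WT, 66 of these 79 were called in WT alone, 10 in both sets and 3 in FL alone. Efnb2, which encodes a ligand of Eph receptors in epidermis and vessels, had 62.0, 34.2 and 47.4 CPM in WT UV, against 159, 198 and 207 CPM in WT NoUV, and 243, 199, 271 and 177 CPM in FL UV, against 267, 267, 298 and 312 CPM in FL NoUV. The WT groups were separated widely and FL UV libraries reached just above the lowest NoUV library. It fell by 1.97 ± 0.20 in WT (adjusted p = 0.00019), its log2 fold change in FL was -0.36 ± 0.19 (adjusted p = 0.272), and the difference of -1.60 ± 0.28 was called (adjusted p = 0.00701) in all 23 alternatives. Efnb2, and Spred2, Sertad3, Prdm1, Ptprk, Patj and Prkdc below, were chosen after their values were seen.

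Dusp5, Dusp7 and Spred2, which restrain the ERK kinase pathway, were among the genes lower in WT. Dusp5, a phosphatase that inactivates nuclear ERK, had 3.23, 3.75 and 6.46 CPM in WT UV, against 21.4, 14.4 and 22.4 CPM in WT NoUV, and 26.9, 17.5, 37.1 and 22.9 CPM in FL UV, against 25.9, 31.1, 32.6 and 26.4 CPM in FL NoUV. FL groups overlapped fully and WT groups not at all. The difference was -1.93 ± 0.38 (adjusted p = 0.0127). Dusp7 had a difference of -1.37 ± 0.30 (adjusted p = 0.0233), and Spred2, an inhibitor of ERK activation, of -1.24 ± 0.25 (adjusted p = 0.0138). Of 11 dual specificity phosphatases tested, 1 rose and 5 fell in WT, 3 rose in FL and none was shared, the median being -0.52 in WT and 0.62 in FL, and the difference was below 0 for 10 of 11 and called for Dusp5 and Dusp7, beside 50.2% of all genes below 0 and 0.375% called lower.

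Fosl2, an AP-1 subunit of differentiating keratinocytes, showed tight groups: 116, 101 and 108 CPM in WT UV, against 181, 205 and 193 CPM in WT NoUV, and 463, 344, 458 and 414 CPM in FL UV, against 384, 355, 369 and 392 CPM in FL NoUV. It fell by 0.83 ± 0.14 in WT (adjusted p = 0.00166), was 0.16 ± 0.14 in FL (adjusted p = 0.51) and differed by -0.98 ± 0.20 (adjusted p = 0.0147). Cd69, an activation marker of lymphocytes, had 0.678, 0.744 and 0.797 CPM in WT UV, against 1.61, 1.83 and 2.66 CPM in WT NoUV, and 3.62, 3.32, 4.09 and 3.61 CPM in FL UV, against 3.40, 0.975, 1.57 and 0.877 CPM in FL NoUV. It moved down in all WT UV libraries while 3 of 4 FL UV libraries lay above all FL NoUV ones, and the difference was -2.64 ± 0.55 (adjusted p = 0.0174). Prdm1, a terminal differentiation repressor also known as Blimp1, fell by 2.02 ± 0.22 in WT and fell by 0.72 ± 0.18 in FL, and the difference of -1.29 ± 0.29 was called (adjusted p = 0.0233). Without WT UV replicate 2 the differences of Dusp5 (adjusted p = 0.0552), Spred2 (0.0552), Fosl2 (0.0546), Cd69 (0.0553) and Dusp7 (0.0616) were no longer called. Dusp7 was also lost without WT UV replicate 1 (0.0627), WT NoUV replicate 1 (0.0685), WT NoUV replicate 2 (0.0502) or FL UV replicate 3 (0.0577), and Prdm1 without WT UV replicate 1 (0.0575), WT NoUV replicate 3 (0.0625) or FL UV replicate 3 (0.0577).

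Rnf122 was the second gene called in opposite directions. It had 2.03, 1.79 and 2.13 CPM in WT UV, against 3.99, 3.44 and 3.97 CPM in WT NoUV, and 13.8, 7.0005, 16.3 and 15.9 CPM in FL UV, against 6.51, 6.73, 5.63 and 8.46 CPM in FL NoUV. In FL replicate 2 of the UV group lay among the NoUV libraries. It fell by 0.94 ± 0.20 in WT (adjusted p = 0.00593) and rose by 0.96 ± 0.28 in FL (adjusted p = 0.0436), with the FL call lost in 7 of 8 fits without 1 FL library (adjusted p up to 0.121), whereas the difference of -1.87 ± 0.37 (adjusted p = 0.0123) was kept in all 14. Sertad3, a transcriptional co-regulator gene, had a difference of -1.64 ± 0.31 (adjusted p = 0.00894), also kept in all 14.

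Protein-coding genes that were higher in WT included a group of very long genes that fell in FL alone. Of the 32, 15 spanned over 100 kb (46.9%), compared with 12.7% of the 79 lower ones and 13.9% of those not called, and 16 were called lower in FL, of which the 15 called in FL alone had a median span of 316 kb. Ptprk, a receptor phosphatase of cell contacts (chr10:28074820-28597397, plus strand), had 52.9, 49.9 and 34.5 CPM in WT UV, against 35.9, 44.3 and 52.6 CPM in WT NoUV, and 45.8, 53.8, 51.8 and 45.5 CPM in FL UV, against 104, 98.4, 94.2 and 121 CPM in FL NoUV. WT groups overlapped fully, and FL UV libraries lay at about the WT level with FL NoUV libraries well above. It fell by 1.09 ± 0.14 in FL (adjusted p = 0.000512), was 0.05 ± 0.19 in WT (adjusted p = 0.892) and differed by 1.15 ± 0.24 (adjusted p = 0.0174). Patj, a cell polarity scaffold gene (chr4:98395785-98719603, plus strand), differed by 1.12 ± 0.24 (adjusted p = 0.0207), and Prkdc, the DNA-dependent protein kinase gene (chr16:15637866-15842235, plus strand), by 1.05 ± 0.23 (adjusted p = 0.0244). Ptprk and Patj lost the call without WT UV replicate 2 (adjusted p = 0.0578 and 0.0691) or WT NoUV replicate 1 (0.0572 and 0.0622), and Prkdc without WT NoUV replicate 1 (0.0572), FL UV replicate 1 (0.0519) or FL UV replicate 3 (0.0516).

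This dependence on span was visible over the protein-coding genes tested in both sets with an average of at least 1 log2 CPM. In FL skin the share called lower was 1.38% under 10 kb, 0.969% at 10 to 20 kb, 2.28% at 20 to 50 kb, 8.92% at 50 to 100 kb, 22.5% at 100 to 200 kb, 26.8% at 200 to 500 kb and 19.4% over 500 kb. In WT skin it was 7.30%, 8.61%, 15.2%, 22.3%, 24.5%, 17.7% and 12.1% over the same bins. Both sets thus had larger shares of falls at 50 to 200 kb than under 20 kb, and the FL share was highest at 200 to 500 kb, where the WT share was below its own peak. The median difference, WT minus FL, was -0.09 under 10 kb, 0.24 at 200 to 500 kb and 0.32 over 500 kb, the last of these from 124 genes.

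Some genes passed in 1 set and not in the other without a called difference, and these are not shown to differ. Of 22 immediate early and AP-1 genes, 6 rose and 2 fell in WT and 15 rose in FL, with 6 shared, medians of 0.47 in WT and 0.97 in FL, and called differences for Fosl2 and Myc only. Fos, the founding AP-1 gene, had 54.6, 69.9 and 58.5 CPM in WT UV, against 177, 26.7 and 39.6 CPM in WT NoUV, and 94.0, 72.6, 129 and 91.0 CPM in FL UV, against 27.9, 9.70, 48.7 and 9.78 CPM in FL NoUV. A single WT NoUV library, replicate 1, held the highest value of all 14. Fos rose by 2.01 ± 0.47 in FL (adjusted p = 0.0171, but 0.074 with no filter on low counts and 0.0612 from control libraries alone), its log2 fold change in WT was -0.41 ± 0.64 (adjusted p = 0.703), and the difference of -2.39 had an interval of -4.17 to -0.60 and an adjusted p of 0.192. The Myc difference of -1.12 ± 0.26 (adjusted p = 0.0319) was lost in 8 of 14 fits that left out 1 library.

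Growth factor and prostaglandin genes followed the same course. Hbegf, a ligand of the EGF receptor shed after UV, rose by 2.29 ± 0.26 in FL (adjusted p = 0.000257) and had 1.05 ± 0.39 in WT (adjusted p = 0.0769), with an uncalled difference of -1.20 (adjusted p = 0.242). Of 7 EGF receptor ligands, 2 rose in FL (Hbegf and Areg, the call of Areg being lost in 6 of 8 fits without 1 FL library, adjusted p up to 0.116), 1 fell in WT (Tgfa), and none was shared. The difference was called for none by edgeR, DESeq2 or limma voom, with 3 at an unadjusted p under 0.05. Il6 rose by 3.11 ± 0.54 in FL (adjusted p = 0.00236) and had 1.80 ± 0.63 in WT (adjusted p = 0.0637). Ptgs2, the inducible cyclooxygenase gene, rose by 2.38 ± 0.59 in FL (adjusted p = 0.0228) and had 1.13 ± 0.42 in WT (adjusted p = 0.0767), but the FL call was lost in 4 of 8 fits without 1 FL library (adjusted p up to 0.0768).

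Interferon-stimulated genes gave few calls in WT and more in FL. Of 40 tested, none passed in WT and 5 rose in FL (Oasl1, Irf7, Stat2, Rtp4 and Ifit1), with medians of -0.05 in WT and 0.59 in FL. Over all genes tested, 8.91% rose in WT and 3.52% in FL. In WT 3 had an unadjusted p under 0.05, DESeq2 called 1 and limma voom 2. In FL 18 had an unadjusted p under 0.05, DESeq2 called 13 and limma voom 13. The difference was below 0 for 38 of 40, beside 50.2% of all genes, and called for none by edgeR, DESeq2 or limma voom, with 4 at an unadjusted p under 0.05. The list depended on single WT libraries: its summed level was 508, 609 and 837 CPM in WT UV, against 810, 491 and 678 CPM in WT NoUV. Without WT NoUV replicate 1, 5 members rose in WT and 31 of 40 differences were below 0, and without WT UV replicate 3 the WT median was -0.56, with 1 member lower and 1 difference called. Ifit1 had 4.91, 2.59 and 27.7 CPM in WT UV, against 6.92, 3.79 and 9.29 CPM in WT NoUV, and 12.5, 9.45, 9.95 and 17.7 CPM in FL UV, against 5.52, 5.67, 5.29 and 3.35 CPM in FL NoUV. WT UV replicate 3 stood apart from its group, and FL groups did not overlap. It rose by 1.33 ± 0.25 in FL (adjusted p = 0.0041) and had 0.82 ± 0.67 in WT (adjusted p = 0.441). FL calls of Oasl1, Stat2 and Rtp4 were lost in 6, 5 and 6 of 8 fits without 1 FL library (adjusted p up to 0.159, 0.108 and 0.134), and that of Irf7 without FL NoUV replicate 2 (0.0626).

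Other stress pathways gave few calls. Metallothioneins Mt1 and Mt2, the zinc-binding stress proteins, rose in WT, and none of 5 tested members of that list was called in FL by edgeR, where 2 had an unadjusted p under 0.05, DESeq2 called 1 and limma voom 2. Mt2 had a log2 fold change of 1.88 ± 0.53 in WT (adjusted p = 0.0261) and 1.01 ± 0.43 in FL (adjusted p = 0.178), without a called difference, and its WT call was lost in 4 of 6 fits without 1 WT library (adjusted p up to 0.123). Among NRF2 targets, which answer oxidative stress, Txnrd1 fell by 0.74 ± 0.17 in WT and fell by 0.88 ± 0.17 in FL, Gclc fell in WT and Srxn1 rose in FL, of 14 tested in WT and 13 in FL. That made 2 called in each set, beside 18.7% of all genes tested in WT and 7.62% in FL. Of 12 heat shock genes, Ddit3 rose in both and Hsp90aa1 in FL, and Ddit3 lost its call in 4 of 6 fits without 1 WT library and in 3 of 8 without 1 FL library (adjusted p up to 0.104 and 0.0802). Keratinocyte stress genes had list medians of -1.50 in WT and 0.34 in FL, with Plaur higher in both among the members described here. The WT median was 0.03 without WT NoUV replicate 1, whose summed level was 7096 CPM, against 689 and 962 CPM in the other WT NoUV libraries and 854 to 1441 CPM in WT UV, and 8 members were called lower in WT without WT NoUV replicate 2. The FL median was -0.63 without FL UV replicate 3. Krt6b, a keratin of stressed epidermis, had 24.2, 20.4 and 23.4 CPM in WT UV, against 1658, 4.23 and 59.5 CPM in WT NoUV. Its WT log2 fold change of -4.66 ± 1.45 was called (adjusted p = 0.044), but it was -0.50 without WT NoUV replicate 1 (adjusted p = 0.707) and 0.80 with limma voom (adjusted p = 0.739). No difference in that list was called by edgeR, DESeq2 or limma voom, with 2 at an unadjusted p under 0.05. Of 13 basal keratinocyte and hemidesmosome genes, Trp63 alone fell in both, and its call was lost in 4 of 6 fits without 1 WT library (adjusted p up to 0.115) and without FL NoUV replicate 2 (0.0596).

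**Figure D4:**
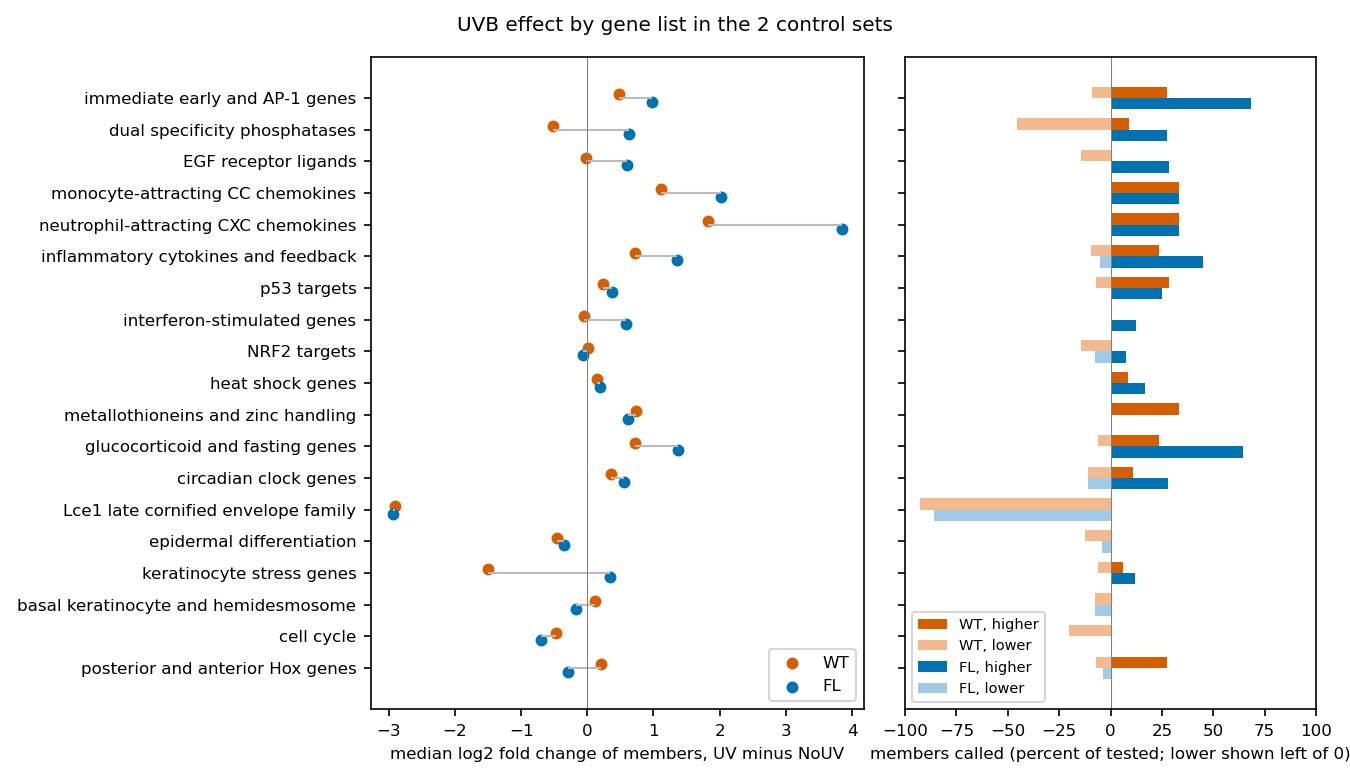
Left, the median log2 fold change, UV over NoUV, of each gene list in WT and in FL skin. Right, the percent of tested members called higher (right of 0) or lower (left of 0) in each set, where the Lce1 family is the list with the most members called in both, all lower.

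The targeted gene Vsir, which encodes the checkpoint receptor VISTA, was intact in all these animals. It had 21.98, 20.2 and 24.0 CPM in WT UV, against 46.1, 34.6 and 34.5 CPM in WT NoUV, and 25.0, 27.8, 36.3 and 29.1 CPM in FL UV, against 19.4, 22.5, 38.5 and 20.8 CPM in FL NoUV. WT groups were apart and FL groups overlapped. Vsir fell by 0.80 ± 0.22 in WT (adjusted p = 0.0223), lost without WT UV replicate 1 (0.0502), WT UV replicate 2 (0.0599) or WT NoUV replicate 1 (0.0521), and had 0.22 ± 0.32 in FL (adjusted p = 0.736). The difference of -0.997, with an interval of -1.86 to -0.13, was not called (adjusted p = 0.278).

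Markers of other cell types gave no called difference: over 15 lists with 164 entries tested, edgeR, DESeq2 and limma voom called none, and 12 had an unadjusted p under 0.05. The lists nevertheless leaned in different directions. The difference was below 0 for 8 of 8 mast cell markers (medians of -0.42 in WT and 1.07 in FL, with 3 at an unadjusted p under 0.05) and for 12 of 12 fibroblast markers (medians of -0.01 in WT and 0.64 in FL, with 2 at that level). It was also below 0 for 12 of 14 macrophage and 9 of 10 dendritic and Langerhans cell markers. Conversely, it was below 0 for 0 of 7 neutrophil markers (median difference 0.54), 0 of 6 erythroid markers (1.05) and 1 of 11 sebaceous gland markers (0.44). The other lists lay between these. Over all genes tested the median difference was -0.001. Mast cell markers summed to 157 to 211 CPM in WT UV, 145 to 295 CPM in WT NoUV, 93.8 to 141 CPM in FL UV and 54.9 to 94.9 CPM in FL NoUV. Growing hair follicle markers summed to 27.5 to 137 CPM in WT UV and 51.9 to 150 CPM in WT NoUV, with Krt33b at 0 in all WT libraries, and to 78.7 to 2707 CPM in FL UV and 114 to 6376 CPM in FL NoUV, so FL libraries differed widely in hair growth genes within each group. Of those tested, 2 of 11 fell in WT (Foxn1 and Dlx3) and none of 19 was called in FL by edgeR, DESeq2 or limma voom, with 0 at an unadjusted p under 0.05. Of 12 endothelial markers, 1 rose and 2 fell in WT (Tek and Kdr, receptors of blood vessels) and 1 rose in FL, beside 18.7% of all genes tested called in WT and 7.62% in FL. The calls of Tek and Kdr were lost without WT NoUV replicate 3 (adjusted p = 0.0566 and 0.0636). Lyve1, of lymphatic vessels and some macrophages, rose by 1.38 ± 0.29 in WT and 2.30 ± 0.46 in FL (adjusted p = 0.00565 and 0.00688), and Cd14, the monocyte endotoxin co-receptor, by 2.01 ± 0.41 in WT and 1.57 ± 0.31 in FL (adjusted p = 0.00494 and 0.00617). Of 13 T cell markers, 1 rose (Thy1, also of fibroblasts) and 1 fell in WT and none was called in FL, with a median difference of -0.01. List medians were -0.63 in WT and -0.49 in FL. Summed levels were 235 to 314 CPM in WT UV, 206 to 241 CPM in WT NoUV, 230 to 292 CPM in FL UV and 193 to 213 CPM in FL NoUV. Thy1 alone held 187 to 276, 141 to 189, 175 to 237 and 99.7 to 160 CPM of these, in the same order. The sums therefore cannot stand for the other markers. The WT call of Thy1 was lost without WT UV replicate 2 (adjusted p = 0.0706), WT UV replicate 3 (0.123), WT NoUV replicate 2 (0.0823) or WT NoUV replicate 3 (0.0829). Trac, which encodes part of the alpha chain of the T cell receptor, fell by 1.91 ± 0.37 in WT (adjusted p = 0.00412) and had -0.49 ± 0.42 in FL (adjusted p = 0.522), with an uncalled difference (adjusted p = 0.278). The part of cell make-up in the results above was not tested.

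**Figure D5:**
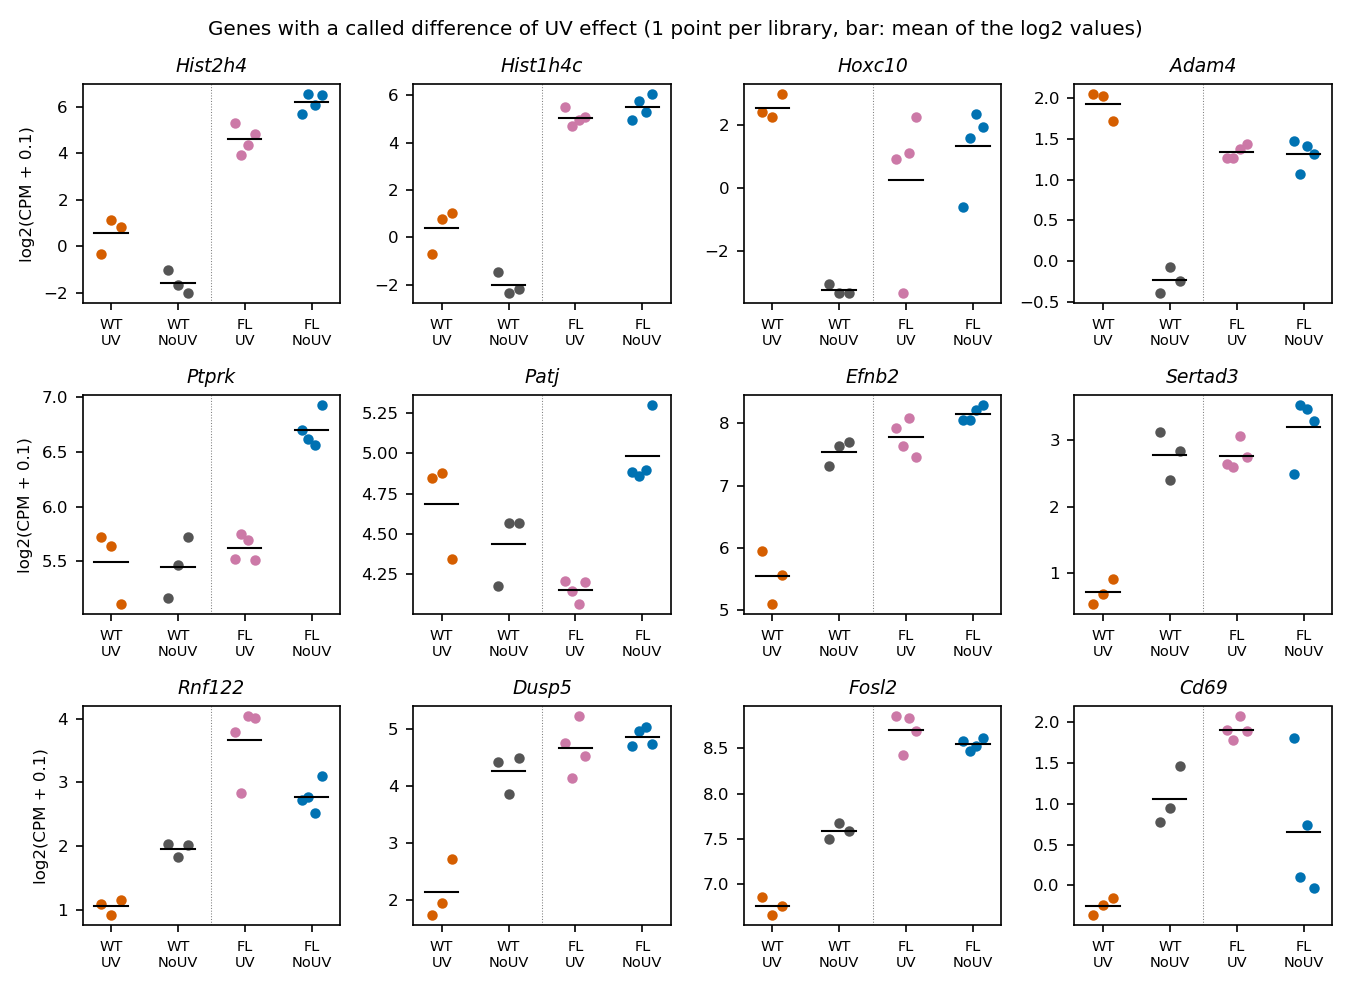
Expression of 12 genes with a called difference of UV effect, as log2 of CPM plus 0.1, with 1 point per library, a bar at the mean of the log2 values, and the UV group left of its NoUV group in each experiment. Hist2h4 runs opposite ways in the 2 experiments, Ptprk and Patj separate only in FL, and Efnb2 and Adam4 separate in WT.

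The knockout libraries of each experiment allow the same contrast between experiments, with no library in common with the control contrast. They are not an independent check. The 262 genes were called in a fit whose spread was estimated partly from these same knockout libraries. With the spread from control libraries alone, 20 differences were called. The difference of UV effects between the whole-body knockout and the keratinocyte knockout had the same sign as the control difference for 179 of the 180 genes higher in WT and for 82 of the 82 lower, beside 73.4% of all 21851 genes. It was itself called in the same direction for 66 of the 180 and 27 of the 82, beside 237 of all 21851 genes. These libraries share the experiment and batch date of their controls, so a difference between experiments and a difference between WT and FL animals cannot be told apart.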

How the data were processed

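Gene-level counts of reads per gene were deposited in 2 tables, 1 per experiment, as whole numbers that were not normalized. Per the submitters' processing notes, the authors trimmed reads with cutadapt 4.6, aligned them with HISAT2 2.1.0 to GRCm38 and counted with featureCounts from Subread. The strand setting is not given in the sources used here. Gene positions of the WT table match GRCm38 for 99.7% of genes, those of the FL table for 2.76%, so positions come from the former annotation.

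Tables were joined on Ensembl ID, and 3304 of the 51976 joined genes had another symbol. Analysis used R 4.3.3 and edgeR 4.0.16 (filterByExpr, TMM, robust quasi-likelihood fits, 1 coefficient per group). The WT effect was fitted on 12 libraries, the FL effect on 16 and their difference on 28. Alternatives used limma 3.58.1 and DESeq2 1.42.0, other filters and scalings, protein-coding genes only, covariates for tissue make-up, a replicate block, and each control library left out. The fits were also run on simulated data, the outcome of which is not reported here. No pair of libraries within a group was a duplicate (chi-square per degree of freedom 27.2 to 211 over 18 pairs). The design text calls samples biological replicates. Intervals of count ratios are exact (Clopper-Pearson) and cover counting error only. Named genes are the 12 shared rises and 12 shared falls with the largest smaller effect, the 10 highest and 10 lowest differences, opposite calls, a fixed list and up to 4 members per gene list. Genes named only as called members of a list, and those said to be, were chosen after their values were seen, as were Txnrd1, Cd14, Oasl1, Stat2 and Rtp4. Predicted, mitochondrial and hair keratin-associated genes were left out. The members and lists were chosen with earlier results of these data known. Promoter windows are from RefSeq. A withheld result is not reported here.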

Additional observations from a re-analysis of the deposited data

Results flagged for a closer look

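For 31 named genes the test of the difference of UV effects, WT minus FL, passed the threshold in the joint edgeR fit. On the log2 scale the differences that were positive were 2.30 for Adam4, 1.94 for Hist1h1e, 5.89 for Hist1h4a, 3.51 for Hist1h4c, 4.06 for Hist2h4, 4.74 for Hist4h4, 1.16 for Hoxb5, 9.35 for Hoxc10, 1.12 for Patj, 1.70 for Phxr4, 1.05 for Prkdc, 1.15 for Ptprk, 1.64 for Tiaf2 and 1.72 for Trpm6. The fitted sizes for Hoxc10 and Hist1h4a depend on the small count added to every library, since WT NoUV held 1 count of each. Negative differences were -2.64 for Cd69, -1.93 for Dusp5, -1.37 for Dusp7, -1.60 for Efnb2, -1.74 for Fam167a, -1.80 for Fli1, -0.98 for Fosl2, -1.64 for Fzd2, -1.93 for Hs3st1, -2.13 for Kcnc4, -1.12 for Myc, -1.86 for Pcdh18, -1.29 for Prdm1, -1.87 for Rnf122, -1.64 for Sertad3, -1.24 for Spred2 and -3.38 for Tnnt1. Of the 31, 8 were called in all 14 fits that left out 1 control library and 23 were lost in at least 1, up to 12 of 14 for Trpm6 and Pcdh18.

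In 18 of 206 groups of 4 FL libraries, 2 for each of 103 named genes, 1 library lay far from the other 3, with a gap to the nearest that took up most of the group's range (Dixon's criterion). Chance alone gives about 1 in 20 such groups. In FL NoUV replicate 1, Ccnl2 was highest at 113 CPM and Ptgs2 highest at 17.0 CPM, while Hoxa10 was lowest at 1.42 CPM and Hoxb9 lowest at 1.13 CPM. In FL NoUV replicate 2, Cxcl1 was highest at 0.753 CPM and Ttr highest at 0.487 CPM. In FL NoUV replicate 3, Trp63 was lowest at 437 CPM and Vsir highest at 38.5 CPM. In FL NoUV replicate 4, Ifit1 was lowest at 3.35 CPM, Prdm1 lowest at 122 CPM and Patj highest at 39.2 CPM. In FL UV replicate 3, Fli1 was highest at 26.3 CPM, Hbegf highest at 68.4 CPM and Ier3 highest at 120.1 CPM. In FL UV replicate 4, Ccnl2 was highest at 213 CPM, Lce1a2 lowest at 18.9 CPM, Myh4 lowest at 134 CPM and Ttr lowest at 1.10 CPM. The causes were not tested.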

How the results depend on the processing

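Of the called effects of genes named in the text, Krt6b alone changed sign under an alternative run, with a WT log2 fold change of 0.80 under limma voom. The WT count of 3817 became 2220 with protein-coding genes only (chosen after seeing the data) and 1288 from control libraries alone. The FL count of 1502 became 2443 with DESeq2, 3352 with limma voom, 992 with no filter on low counts, 953 from control libraries alone and 3033 with tissue covariates. The shared count of 707 became 1110, 1265, 273 and 1330 under DESeq2, limma voom, control libraries alone and tissue covariates. The difference count of 262 became 35 with protein-coding genes only, 703 with DESeq2, 388 with limma voom, 137 with no filter, 121 with a mean count of at least 10 in every control group, 20 from control libraries alone and 600 with tissue covariates. Leaving out 1 control library gave 2734 to 4315 for WT, 884 to 1564 for FL, 434 to 778 shared and 65 to 423 for the difference. The cause of these shifts was not tested, except that fits on control libraries alone have fewer samples. The count with an interval within 1 log2 unit stayed within 1.5 times of 7645 throughout.

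Same-numbered UV and NoUV samples correlated at 0.409 to 0.599 in 3 of 7 pairs and at -0.478 to -0.101 in 4, and the labels do not say that a number marks a shared animal, litter or day, so the numbers were not taken as pairs, and a cohort shared by some of them was not tested. A replicate block gave 3687 WT, 2129 FL, 912 shared and 332 difference calls. With no filter, named calls lost in WT included those of Krt6b, Mt2, Pdk4, Pmaip1 and Ucp3. Those lost in FL included Areg, Ddit3, Fos, Il1a, Pdk4, Ptgs2, Rtp4, Stat2 and Trim63 (adjusted p of 0.0558 to 0.159 over the listed genes of both sets). With control libraries alone, named calls lost in WT included Ccl12, Cdkn1a, Ddit3, Kdr, Krt6b, Mt2, Pmaip1, Rnf122, Tek, Thy1, Trp63, Txnrd1 and Vsir. Those lost in FL included Ddit3, Fos, Oasl1, Pdk4, Ptgs2, Rnf122, Rtp4, Stat2 and Trp63 (0.0523 to 0.148 over the listed genes of both sets). Npas2 lost its WT call with limma voom (0.0628). Of the 262 differences, 44 were called in all 14 leave-one-out fits and 3 (Adam4, Efnb2 and Hist2h4) in all 23 alternatives, 1 of which holds only protein-coding genes. The shallowest library, at 7.12 M counts, limits low genes in FL NoUV.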
